A study of Mus musculus with 6 samples.

Results

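Angiopoietins, vascular endothelial growth factors (VEGFs) and their receptors were followed on 6 expression arrays of mouse cells as 10 genes, Angpt1, Angpt2, Tek, Vegfa, Pgf, Vegfb, Vegfc, Flt1, Kdr and Angptl4, out of 22180 genes in the deposited table. The genes were listed by symbol, and each was represented by its probe set with 1 symbol and the highest mean over the 6 arrays. All 10 were found, and 9 lay above the floor described below on at least 1 array. The arrays held RNA of mouse embryonic fibroblasts (MEF), of fibroblasts induced toward parvalbumin neurons (iPV) for 3, 7 and 14 days, of 14-day iPV cells sorted for green fluorescence, and of a sample labelled endogenous parvalbumin (PV) neurons. All 6 samples came from strain C57BL/6 with the PV-GFP transgene, in which green fluorescent protein marks parvalbumin cells, and all are labelled as from embryos of 13.5 days. The same text on fibroblast culture and adenovirus infection stands with every sample, the MEF and the labelled endogenous PV sample included, and the infected genes are not named in the labels. Each group had 1 array, so the differences given here have no replicate behind them and hold for these arrays alone.

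Values are log2 intensities. The median over probe sets other than controls was 5.01, and any value under it was raised to that floor before a difference was taken, and a fold taken against a raised value, being only a lower limit, is written "at least". A gene was counted as higher or lower when the log2 difference was 1 or more in size, which is 2-fold. The technical spread, taken from pairs of probe sets of the same gene on the same arrays, was between 0.27 and 0.50 on the log2 scale over the 9 comparisons, and it does not cover variation between cultures. The array labelled endogenous PV had 5.48 for Pvalb, against 5.23 in MEF, while its type I collagen gene Col1a1 had 12.34, against 12.31 in MEF. The label is therefore kept here as a label only. Sorting took a fraction of cells at 14 days, the labels do not say whether from the culture used unsorted, and in bulk RNA fewer cells of a type and less RNA per cell cannot be told apart.

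Angiopoietins are secreted ligands of the receptor tyrosine kinase Tek (also called Tie2), which sits mainly on endothelial cells. Angpt1 activates it and steadies vessels, and is typically made by the mesenchymal cells around them, while Angpt2 often counters Angpt1. VEGF ligands act on related receptor kinases: Kdr is the main signalling receptor for Vegfa, and Flt1 binds Vegfa, Vegfb and Pgf and is also found on monocytes and macrophages. Vegfc acts chiefly on the lymphatic receptor Flt4. Angptl4 has an angiopoietin-like fold but does not bind Tek, and it inhibits lipoprotein lipase.

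By its brighter probe set, Angpt1 was the member furthest above MEF on each of the 5 other arrays, and neither Flt1 nor Kdr was above MEF on any of them. At day 3, 2 of the 10 genes were at least 2-fold higher than in MEF, Angpt1 and Pgf, against a background of 1.43% of all genes, and 2 were lower, Flt1 and Angptl4, against 1.64%. At day 7, 1 was higher (Angpt1, background 1.7%) and 3 were lower (Flt1, Kdr and Angptl4, background 0.843%). At day 14, Angpt1 and Pgf were higher, where 2.1% of all genes were, and Flt1 and Angptl4 were lower, where 1.26% were. Sorted cells had 3 higher members, Angpt1, Vegfa and Pgf, beside 3.67% of all genes, and 2 lower ones, Flt1 and Angptl4, beside 1.64%. On the array labelled endogenous PV, Angpt1 was the 1 higher member (2.13% of all genes) and Kdr the 1 lower member (0.969%). These 5 comparisons share the MEF array, so an error in that array enters all of them. Over genes above the floor on at least 1 array of the pair, the background in these 5 comparisons was wider, between 1.39% for lower genes at day 7 and 6.04% for higher genes in sorted cells.

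**Figure D1:**
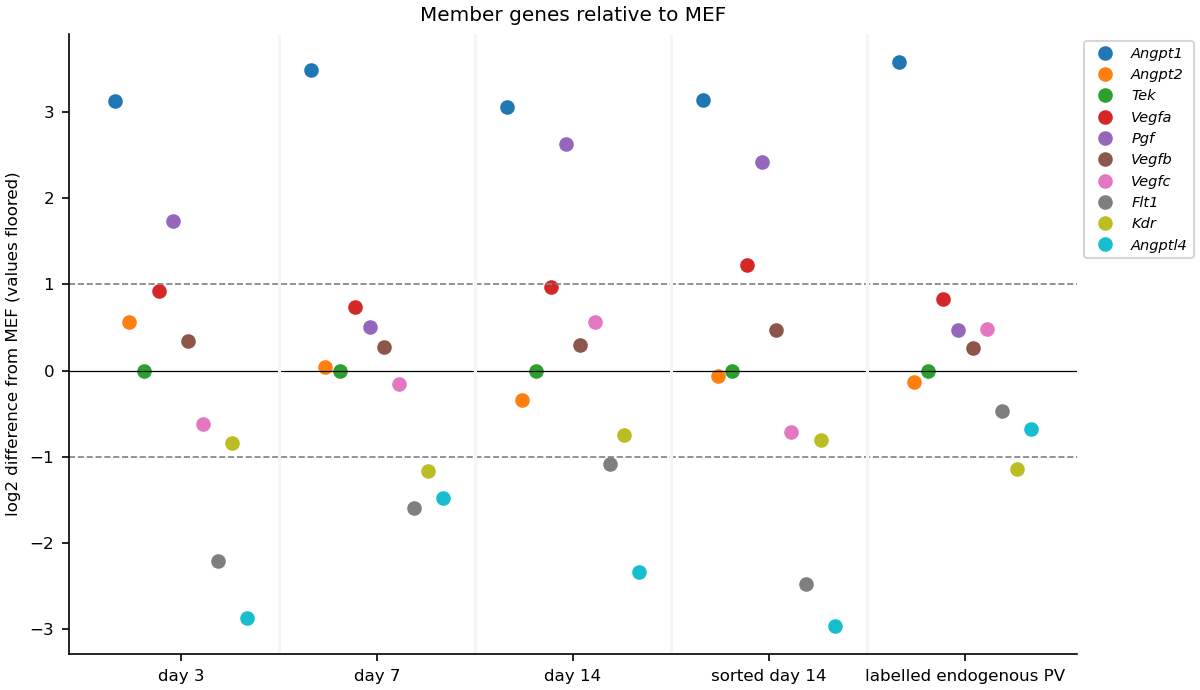
Log2 difference from MEF (vertical axis, values floored) of the 10 genes on each of the 5 other arrays (horizontal axis), with 1 point per gene and array. Dashed lines mark 2-fold. Angpt1 lies between 3.06 and 3.58 on all 5 arrays, and Flt1, Kdr and Angptl4 lie below 0 on all 5.

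Among the Tek ligands, Angpt1 had 5.56 in MEF, 8.68 at day 3, 9.04 at day 7 and 8.62 at day 14. Sorted cells had 8.69, against 8.62 in unsorted day 14 cells, and the array labelled endogenous PV had 9.14, against 5.56 in MEF. MEF alone was low, and the other 5 arrays lay between 8.62 and 9.14. Angpt1 was thus 8.74-fold higher at day 3, 11.2-fold at day 7, 8.34-fold at day 14, 8.78-fold for sorted cells and 12.0-fold for the labelled endogenous PV array, each against MEF. At day 3, 0.134% of 13439 genes above the floor differed from MEF by more, and the difference was 9.80 times the technical spread. Sorted and unsorted day 14 cells differed by 0.07, within the spread of 0.33 for that pair. The probe set used here was 1 of 2 for Angpt1. The other read between 3.86 in MEF and 4.95 at day 14, under the floor on all 6 arrays, so it could show no difference. With the mean of both probe sets in place of the brighter one, the MEF value fell under the floor, and the difference from MEF was at least 1.78 at day 3, 1.90 at day 7, 1.77 at day 14, 1.39 for sorted cells and 1.84 for the labelled endogenous PV array, still past 2-fold on all 5. Sorted against unsorted day 14 cells then differed by -0.38, past the spread of 0.33, a value that draws on the probe set under the floor.

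Angpt2, the ligand that often opposes Angpt1, stayed near the floor. It had 5.45 in MEF, 6.01 at day 3, 5.50 at day 7 and 5.11 at day 14, with day 3 the highest. Sorted cells had 5.39, against 5.11 in unsorted day 14 cells, and the array labelled endogenous PV had 5.33, against 5.45 in MEF. No difference of Angpt2 reached 2-fold in the 9 comparisons, and its difference of 0.05 at day 7 against MEF turned to -0.22 when arrays were centred on housekeeping genes. Tek, the receptor itself, was under the floor on all 6 arrays. Its values were 4.37 in MEF, 4.40 at day 3, 4.16 at day 7 and 3.97 at day 14, then 4.82 for sorted cells and 4.48 for the labelled endogenous PV array, and no fold is given.

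**Figure D2:**
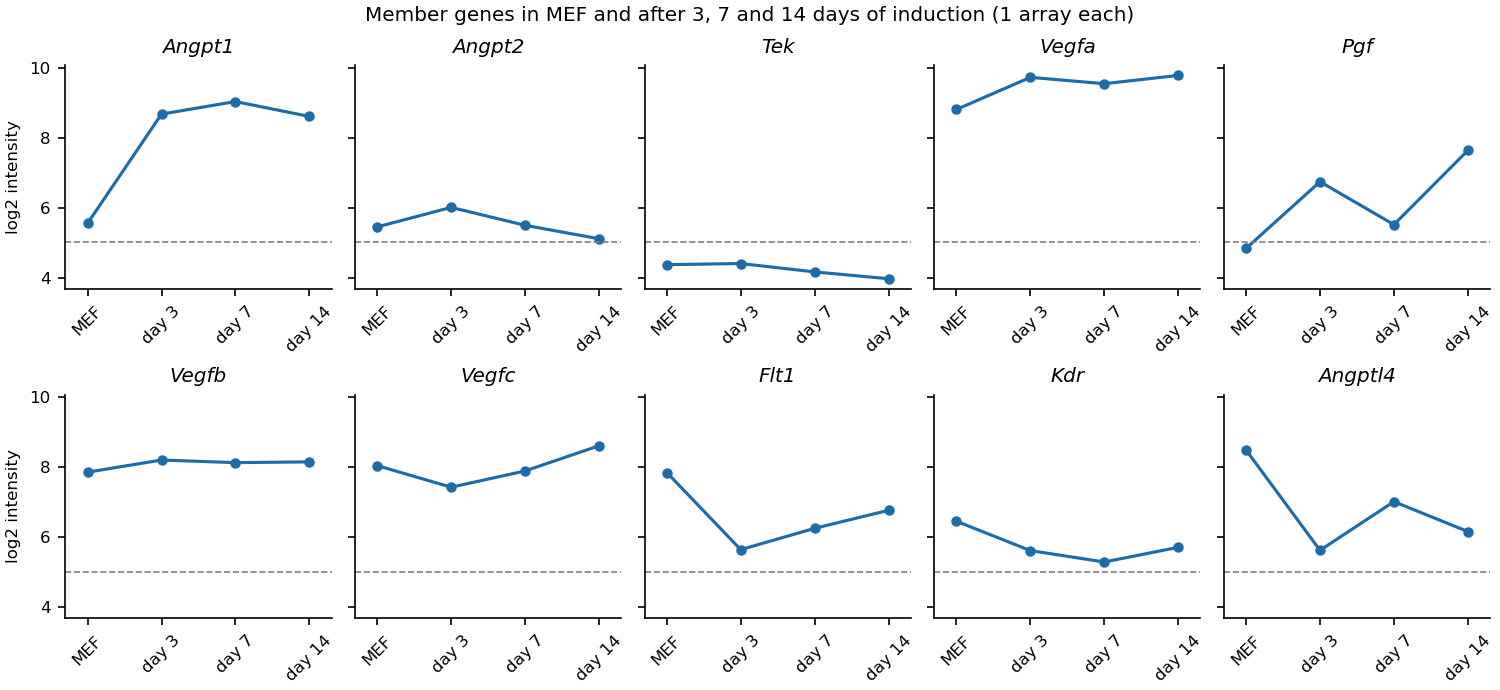
Log2 intensity (vertical axis, shared by all panels) of each of the 10 genes in MEF and at days 3, 7 and 14 of induction (horizontal axis), 1 point per array, with the floor of 5.01 as a dashed line. Angpt1 differs between MEF and day 3 and then lies between 8.62 and 9.04, Pgf alternates, and Tek lies under the floor throughout.

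Of the VEGF ligands, Pgf (placental growth factor, a ligand of Flt1 alone among the VEGF receptors) varied most. It had 4.84 in MEF, 6.75 at day 3, 5.52 at day 7 and 7.64 at day 14. Sorted cells had 7.43, against 7.64 in unsorted day 14 cells, and the array labelled endogenous PV had 5.48, against 4.84 in MEF. The order was therefore MEF, the array labelled endogenous PV, day 7, day 3, sorted cells and day 14, and 2 pairs of neighbours lay close together, labelled endogenous PV with day 7 (5.48 and 5.52) and sorted with unsorted day 14 cells (7.43 and 7.64). Against MEF, which was under the floor, Pgf was at least 3.33-fold higher at day 3, at least 6.19-fold at day 14 and at least 5.36-fold in sorted cells. Between steps it differed by -1.23 at day 7 against day 3 and by 2.12 (4.36-fold) at day 14 against day 7. It was the 1 member at least 2-fold lower at day 7 than at day 3, where 0.528% of all genes were, and the 1 member higher at day 14 than at day 7, where 0.604% were. With the floor at percentile 75, the differences of Pgf at day 3 and in sorted cells against MEF were 0.16 and 0.85, and that at day 7 against day 3 was -0.16, so those calls ended. At day 14 the difference was then 1.06 against MEF and against day 7.

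Vegfa, the main ligand of Kdr and a classic product of hypoxic cells, had 8.82 in MEF, 9.74 at day 3, 9.55 at day 7 and 9.79 at day 14. Sorted cells had 10.05, against 9.79 in unsorted day 14 cells, and the array labelled endogenous PV had 9.65, against 8.82 in MEF. MEF was again the lowest array. The difference from MEF was 0.92, 0.74 and 0.97 at days 3, 7 and 14, 1.23 for sorted cells and 0.84 for the labelled endogenous PV array, and only that of sorted cells passed 2-fold (2.34-fold). After housekeeping centring it was 0.97 in sorted cells, so the call ended, and the 5 differences then lay between 0.47 and 0.97. Outside MEF, Vegfa lay between 9.55 and 10.05.

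Vegfb, a ligand of Flt1, was the steadiest of the members above the floor. Its values were 7.86 in MEF, 8.21 at day 3, 8.13 at day 7 and 8.15 at day 14, and sorted cells had 8.33, against 8.15 in unsorted day 14 cells. The array labelled endogenous PV had 8.12, against 7.86 in MEF. Its differences from MEF, between 0.26 and 0.47, were at most 1.09 times the technical spread. Vegfc had 8.05 in MEF, 7.43 at day 3, 7.89 at day 7 and 8.61 at day 14. Sorted cells had 7.34, against 8.61 in unsorted day 14 cells, a difference of -1.28 (2.42-fold lower) beside a technical spread of 0.33. On the array labelled endogenous PV it had 8.53, against 8.05 in MEF. No difference of Vegfc from MEF reached 2-fold, and sorted cells and day 3 were its lowest arrays.

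The promoters of the ligands Vegfa and Pgf, which passed 2-fold above MEF on 1 and 3 of the 5 arrays, are shown for comparison with those of the receptors Flt1 and Kdr further on, each as 250 bases before to 50 bases after the annotated start, from RefSeq on build GRCm38.p6, 5′ to 3′ on the gene's strand. A window was matched by symbol for 7 of the 10 genes, all but Angpt1, Angpt2 and Angptl4. Vegfa and Pgf had 2 windows each, and only the one furthest upstream is shown and read here. Capitals mark matches on either strand to GGGCGG (the GC box), ACGTG and GCGTG (forms of the core bound by hypoxia-inducible factors) and TGACGTCA (the cAMP response element). The Vegfa window lies at chr17:46032328-46032627 on the minus strand and the Pgf window at chr12:85177264-85177563 on the minus strand.
Vegfa: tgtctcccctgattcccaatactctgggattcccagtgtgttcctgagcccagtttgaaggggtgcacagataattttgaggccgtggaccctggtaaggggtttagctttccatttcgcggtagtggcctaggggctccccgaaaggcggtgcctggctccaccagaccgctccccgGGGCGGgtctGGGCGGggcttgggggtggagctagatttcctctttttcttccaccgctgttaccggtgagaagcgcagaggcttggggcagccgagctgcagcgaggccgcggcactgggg
Pgf: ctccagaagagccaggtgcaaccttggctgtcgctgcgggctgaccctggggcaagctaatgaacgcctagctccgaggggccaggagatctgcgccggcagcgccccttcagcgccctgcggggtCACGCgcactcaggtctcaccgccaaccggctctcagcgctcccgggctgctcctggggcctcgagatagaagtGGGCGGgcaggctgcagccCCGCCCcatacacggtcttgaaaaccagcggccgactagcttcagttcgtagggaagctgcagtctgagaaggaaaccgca
The Vegfa window held 2 GC boxes and neither hypoxia core, and the Pgf window held 2 GC boxes and 1 GCGTG. A GC box was present in 35.7% of all 32851 windows, ACGTG in 19.6%, GCGTG in 32.4% and TGACGTCA in 1.79%.

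The receptors Flt1 and Kdr were lower than in MEF on all 5 other arrays. Flt1, which binds Vegfa, Vegfb and Pgf, had 7.85 in MEF, 5.64 at day 3, 6.25 at day 7 and 6.77 at day 14. Sorted cells had 5.37, against 6.77 in unsorted day 14 cells, and the array labelled endogenous PV had 7.39, against 7.85 in MEF. Sorted cells and day 3 were lowest, and MEF and the array labelled endogenous PV were highest. Against MEF the gene was 4.63-fold lower at day 3, 3.03-fold at day 7, 2.12-fold at day 14 and 5.57-fold in sorted cells, while the array labelled endogenous PV differed by -0.46, beside a technical spread of 0.42. With the floor at percentile 75, above the values of Flt1 at day 3 and in sorted cells, the difference from MEF was -1.26 on each of these arrays. Values at days 7 and 14 were each above the one before, by 0.61 and 0.52, or 1.88 times the technical spread in each step.

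Kdr, the main signalling receptor of Vegfa, had 6.45 in MEF, 5.61 at day 3, 5.29 at day 7 and 5.71 at day 14. Sorted cells had 5.65, against 5.71 in unsorted day 14 cells, and the array labelled endogenous PV had 5.31, against 6.45 in MEF. MEF was the only array above 6, and the other 5 lay between 5.29 and 5.71, close to the floor. The 2 differences from MEF past 2-fold were -1.17 at day 7 and -1.14 on the array labelled endogenous PV, and both became 0 with the floor raised to percentile 75, since Kdr lay under that floor on every array. After housekeeping centring, 4 of the 5 differences passed 2-fold, with -0.99 at day 14 just short.

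The promoter windows of these 2 receptors lie at chr5:147725962-147726261 for Flt1 and chr5:75978406-75978705 for Kdr, both on the minus strand, with the same motifs in capitals.
Flt1: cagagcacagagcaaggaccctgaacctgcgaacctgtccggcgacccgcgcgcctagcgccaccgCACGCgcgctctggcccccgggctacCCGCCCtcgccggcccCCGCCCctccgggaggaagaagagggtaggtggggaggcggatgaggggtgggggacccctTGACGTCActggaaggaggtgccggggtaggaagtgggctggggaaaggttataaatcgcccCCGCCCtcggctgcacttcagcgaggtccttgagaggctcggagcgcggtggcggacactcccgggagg
Kdr: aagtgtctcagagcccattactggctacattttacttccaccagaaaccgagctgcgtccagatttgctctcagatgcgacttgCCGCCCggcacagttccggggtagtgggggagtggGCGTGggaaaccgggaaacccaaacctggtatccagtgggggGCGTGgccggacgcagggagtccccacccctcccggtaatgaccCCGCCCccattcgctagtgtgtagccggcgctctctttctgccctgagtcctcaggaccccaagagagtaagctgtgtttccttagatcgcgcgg
The Flt1 window held 3 GC boxes, 1 GCGTG and 1 TGACGTCA, and it was the 1 window among the 7 with the cAMP response element. The Kdr window held 2 GC boxes and 2 GCGTG. Letters in a window are a description and say nothing of which factor was bound in these cells.

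Angptl4, the secreted inhibitor of lipoprotein lipase, had 8.49 in MEF, 5.62 at day 3, 7.01 at day 7 and 6.16 at day 14. Sorted cells had 5.53, against 6.16 in unsorted day 14 cells, and the array labelled endogenous PV had 7.82, against 8.49 in MEF. MEF was highest, and sorted cells and day 3 were lowest. It was 7.32-fold lower at day 3, 2.78-fold at day 7, 5.04-fold at day 14 and 7.79-fold in sorted cells than in MEF, and differed by -0.67 on the array labelled endogenous PV. With the floor at percentile 75 it differed from MEF by -1.91 at day 3 and in sorted cells. Angptl4 was also the 1 member at least 2-fold higher at day 7 than at day 3, by 1.39, where 1.3% of all genes were, and by 0.43 with the floor at percentile 75. At day 14 it differed by -0.86 from day 7, a step at which 0 of the 10 members were at least 2-fold lower and 0.825% of all genes were.

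In cells sorted for green fluorescence, Angpt1, Angpt2 and Vegfa lay near their values in unsorted day 14 cells, while Vegfc and Flt1 were lower. Those 2 were the members at least 2-fold lower in sorted than in unsorted day 14 cells, with differences of -1.28 for Vegfc and -1.40 for Flt1, where 0.609% of all genes were, and 0 members were higher, where 1.26% were. With the floor at percentile 75 the Flt1 difference was -0.18, since its sorted value lay under that floor. Compared with the array labelled endogenous PV, sorted cells had 1 higher member, Pgf by 1.95 (background 1.36%), and 3 lower ones (background 1.14%). The differences were -2.29 for Angptl4, -2.02 for Flt1 and -1.20 for Vegfc. With the floor at percentile 75, the difference of Pgf was 0.85 and that of Flt1 -0.80, so both calls ended. Between these arrays Angpt1 differed by -0.45, and Angpt2, Vegfa, Vegfb and Kdr by between 0.06 and 0.39.

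**Figure D3:**
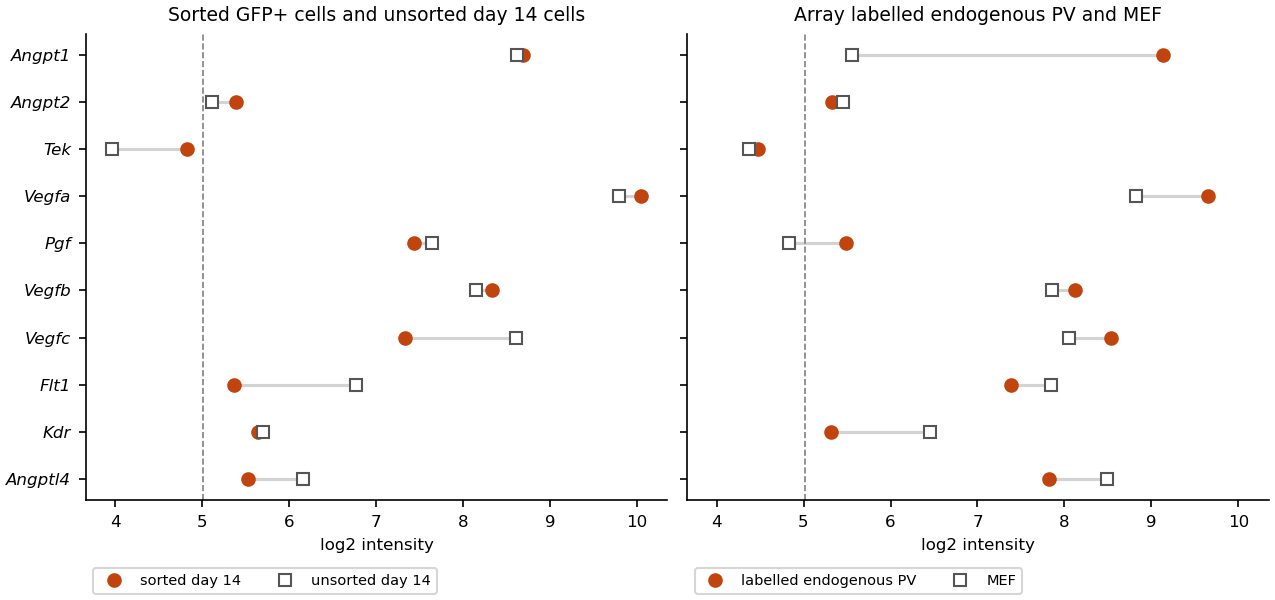
Log2 intensity (horizontal axis) of the 10 genes (vertical axis) in sorted cells and unsorted day 14 cells (left) and on the array labelled endogenous PV and in MEF (right), 1 point per array, with the floor of 5.01 as a dashed line. The longest left-hand gaps above the floor are those of Flt1 and Vegfc, and the longest right-hand gap is that of Angpt1, 9.14 against 5.56.

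Further members of the angiopoietin and VEGF families were read from a list of 15 symbols, of which 11 were in the table. Counts against MEF in this and the later lists stand beside the share of all genes above the floor. That share was 2.37% to 6.04% for higher genes and 1.39% to 2.70% for lower genes. For list counts in sorted against unsorted day 14 cells, the share was 2.12% for higher genes and 1.02% for lower genes. At day 3, 2 of the 9 above the floor were at least 2-fold lower than in MEF and 0 were higher, at day 7, 1 of 10 was higher and 1 lower, and at day 14, 2 of 9 were lower. In sorted cells 1 of 9 was higher and 2 were lower, and on the array labelled endogenous PV 2 of 10 were higher and 1 was lower. Median differences from MEF lay between -0.34 and 0.05, beside 0.02 to 0.08 over all genes above the floor. Angpt4, another Tek ligand, had 5.68 in MEF, 6.46 at day 3, 7.30 at day 7 and 6.35 at day 14. Its sorted value was 8.21, against 6.35 in unsorted day 14 cells, and the array labelled endogenous PV had 7.03, against 5.68 in MEF. Sorted cells were highest, 2.53 above MEF.

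Angptl7, an angiopoietin-like secreted protein, was lower than MEF on all 5 arrays, with differences between -2.65 and -1.99. Vegfd, a relative of Vegfc, had 8.57 in MEF, 7.62 at day 3, 8.86 at day 7 and 7.78 at day 14. Sorted cells had 7.60 for it, against 7.78 in unsorted day 14 cells, and the array labelled endogenous PV had 9.62, against 8.57 in MEF. Nrp2, a co-receptor of VEGFs and semaphorins, had 9.44 in MEF, 7.84 at day 3, 8.84 at day 7 and 7.03 at day 14, and sorted cells had 8.10, against 7.03 in unsorted day 14 cells. Nrp1, its relative, lay between 8.22 in MEF and 8.92 on the array labelled endogenous PV. The lymphatic receptor Flt4 lay between 5.97 and 6.32, and Angptl8 between 5.70 and 6.16. Tie1, an orphan relative of Tek, lay under the floor on every array, at most 4.64 at day 7, and Ptprb, an endothelial phosphatase that acts on Tek, reached at most 5.03, in MEF. Svep1, an extracellular matrix protein, had 9.48 in MEF and 10.43 at its highest, on the array labelled endogenous PV, and Angptl1 passed the floor at day 7 (5.39) and on the array labelled endogenous PV (5.05).

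Markers of endothelial cells, the usual site of Tek, Kdr and Flt1, were mostly near background on all 6 arrays. Of 16 such markers, 10 were under the floor on every array, among them Cldn5, Emcn, Vwf and Icam2, and the mean level of the list was between 4.64 in sorted cells and 4.79 at day 14. Eng, which mesenchymal cells also express, lay between 7.17 and 8.15. Only 3 to 5 of the markers were above the floor in each comparison with MEF, and 0 of these differed 2-fold. The others could show no difference, being raised to the floor. Genes that endothelial cells switch on in response to VEGF numbered 12 in the table, and Rcan1, an inhibitor of calcineurin, was lower than MEF on all 5 arrays, with the smallest difference, -1.25, at day 14. Apln, the ligand of the apelin receptor, was higher by 2.27 at day 7 and by 1.57 on the array labelled endogenous PV. Aplnr, the apelin receptor, stayed under the floor throughout.

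The mean of macrophage markers, like Flt1 and Angptl4, was lowest in sorted cells and at day 3, and the part of these markers in the differences of both genes was not tested. The mean level of 8 macrophage markers was 6.82 in MEF, 5.31 at day 3, 6.06 at day 7 and 5.99 at day 14. It was 5.27 in sorted cells, against 5.99 in unsorted day 14 cells, and 7.26 for the labelled endogenous PV array, against 6.82 in MEF. For Flt1, Angptl4 and the marker mean alike, the lowest arrays were sorted cells and day 3 and the highest were MEF and the array labelled endogenous PV. This order was not particular to macrophage markers. The mean of 11 fibroblast markers, described below, was also lowest at day 3 (10.46) and in sorted cells (10.66). It was highest in MEF (11.19) and on the array labelled endogenous PV (11.11). The mean of the PPAR list below had the same lowest and highest arrays, but by narrow gaps. It was 7.291 in sorted cells and 7.296 at day 7, and 7.368 in MEF and 7.363 at day 14. That list includes Cd36, which is also found on macrophages. Flt1, Angptl4 and the macrophage marker mean did not run alike in every step. At day 14 against day 7, Flt1 differed by 0.52 and Angptl4 by -0.86, while the marker mean was 5.99 at day 14 and 6.06 at day 7. On the array labelled endogenous PV the marker mean was above that of MEF, and Flt1 and Angptl4 were below it. Of the markers above the floor, 5 of 6 were at least 2-fold lower at day 3 than in MEF, 4 of 7 at day 7, 3 of 7 at day 14 and 4 of 6 in sorted cells. On the array labelled endogenous PV 0 of 7 were lower and 1 was higher, Tyrobp. Lyz2, which encodes lysozyme, had 9.78 in MEF, 6.76 at day 3, 7.99 at day 7 and 8.06 at day 14. Its sorted value was 6.03, against 8.06 in unsorted day 14 cells, and 10.05 for the labelled endogenous PV array, against 9.78 in MEF. Cd68, a lysosomal protein, had 7.19 in sorted cells, against 6.79 in unsorted day 14 cells, the opposite order to Lyz2. Tyrobp was under the floor in MEF and Aif1 was under it on every array.

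**Figure D4:**
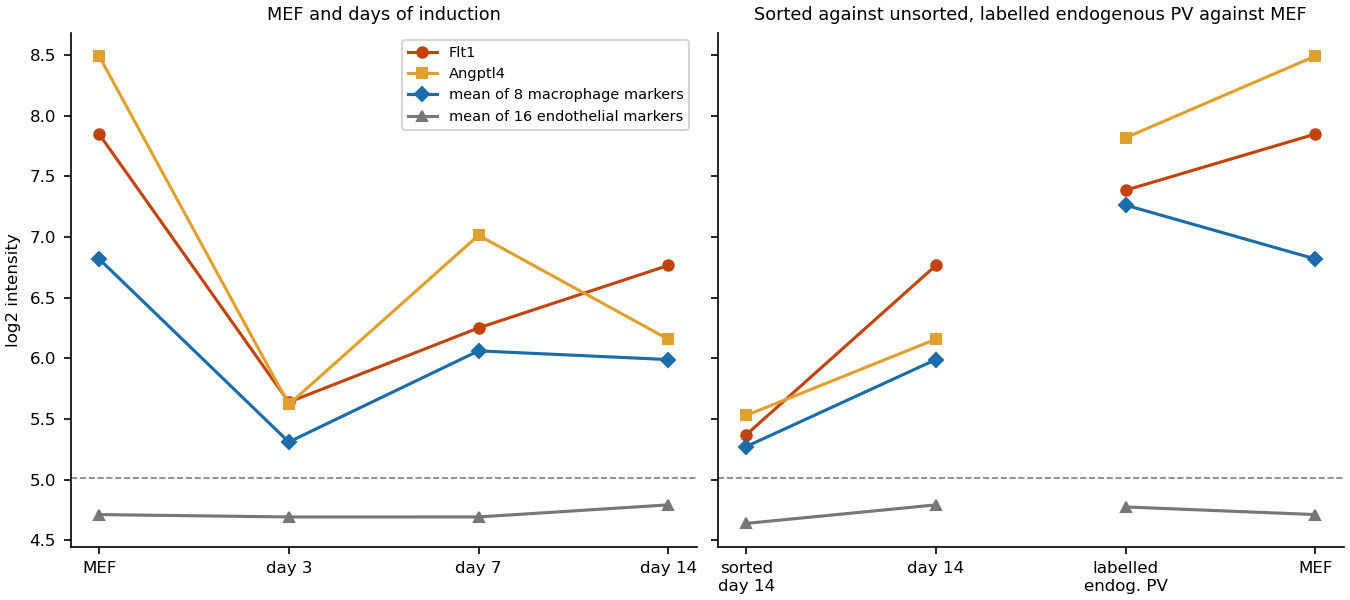
Log2 intensity (vertical axis) of Flt1, Angptl4, the mean of 8 macrophage markers and the mean of 16 endothelial markers in MEF and over the days of induction (left), and in 2 pairs, sorted with unsorted day 14 cells and labelled endogenous PV with MEF (right), 1 point per array. The dashed line is the floor of 5.01. The endothelial mean stays under the floor, and the macrophage mean is lowest at day 3 (5.31) and in sorted cells (5.27).

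Mesenchymal cells are a known source of Angpt1, and most markers of fibroblasts were bright on all arrays. MEF had the highest mean of these markers and the lowest Angpt1 (5.56), and any link between them was not tested. The mean of 11 fibroblast markers lay between 10.46 at day 3 and 11.19 in MEF, and 5 of 11 were at least 2-fold lower at day 3 than in MEF, 2 at day 7, 2 at day 14, 3 among sorted cells and 2 for the labelled endogenous PV array. In the other direction 1 was higher at day 7, Col3a1, and 3 for the labelled endogenous PV array, Col3a1, Dcn and Lum, all genes of the collagen matrix. Thy1, a surface glycoprotein, differed from MEF by -1.90 at day 3 and by 0.43 at day 7, and S100a4, a calcium-binding protein, was lower on all 5 arrays, with -2.33 at day 3. Of 11 markers of pericytes and smooth muscle, 3 were at least 2-fold higher at day 3 than in MEF, 3 at day 7, 2 at day 14, 2 for sorted cells and 1 for the labelled endogenous PV array, and 0 were at least 2-fold lower. The list medians were 0.28, 0.45, 0.16, 0.08 and 0.03 in that order. Cspg4 was below MEF on all 5 arrays, with differences between -0.65 and -0.31, and Acta2 and Mcam were below it on some. Des, a muscle intermediate filament protein, was higher on all 5 arrays, by 2.61 at day 3, 2.60 at day 7, 1.84 at day 14, 3.17 for sorted cells and 1.27 for the labelled endogenous PV array. Rgs5, a regulator of G protein signalling in pericytes, had 8.21 in sorted cells, against 6.44 in unsorted day 14 cells. In that comparison Rgs5 and Des were the 2 of 11 at least 2-fold higher, and Tagln, a smooth muscle actin-binding protein, was lower, with 9.44 in sorted cells, against 10.76 in unsorted day 14 cells. Pdgfrb, the pericyte receptor for PDGF, lay between 9.89 and 10.45. Of 9 neuronal markers above the floor, 5 were at least 2-fold higher in sorted cells than in MEF. At day 3, 0 of 9 were, and at days 7 and 14 and on the array labelled endogenous PV only Snap25 was. Map2 was lower than in MEF at day 14 (-1.13), and Gap43 differed from MEF by -0.98 in sorted cells. In sorted against unsorted day 14 cells 3 were at least 2-fold higher, Tubb3, Map2 and Snap25. Map2 had 7.19 in sorted cells, 6.07 in unsorted day 14 cells and 7.20 in MEF. Snap25, a protein of synaptic vesicle fusion, had 8.05 in sorted cells, against 6.90 in unsorted day 14 cells, while Stmn2, a regulator of microtubules, had 7.14, against 7.71. Pvalb, whose transgene set the sort, had 6.29 in sorted cells, against 5.80 in unsorted day 14 cells, and Gad1 and Gad2, which make GABA, stayed at or under 5.19.

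Genes of the response to low oxygen, of which Vegfa is a known target, were higher than in MEF in part. Any link between these genes and the differences of Vegfa was not tested. On each array 0 of 21 were at least 2-fold lower, near the share of 1.39% to 2.70% over all genes above the floor. At day 3, 2 of 21 were at least 2-fold higher, Egln3 and Hk2, at day 7 there were 5, at day 14 there were 9, among sorted cells 3, and 7 for the labelled endogenous PV array. The list medians were 0.24 at day 3, 0.63 at day 7, 0.80 at day 14, 0.47 for sorted cells and 0.46 for the labelled endogenous PV array, against medians of 0.02 to 0.08 over all genes above the floor. Housekeeping centring lowered them to 0.06, 0.36, 0.56, 0.22 and 0.22 in that order, while it moved the medians of all genes above the floor to between -0.23 and -0.16. Egln3, an oxygen-sensing prolyl hydroxylase, had 6.65 in MEF, 9.39 at day 3, 8.80 at day 7 and 9.15 at day 14. Sorted cells had 10.01 for it, against 9.15 in unsorted day 14 cells, and the array labelled endogenous PV had 8.62, against 6.65 in MEF. Sorted cells were its highest array. In sorted against unsorted day 14 cells, however, 0 of the 21 genes were at least 2-fold higher. There 2 were lower, Adm and Ddit4, and the list median was -0.39. Vegfa differed by 0.25 in that comparison. Its difference from MEF was largest in sorted cells (1.23), while the list median was highest at day 14 (0.80). Hk2, a hexokinase, was higher by 1.25 to 1.84, P4ha2, a collagen prolyl hydroxylase, by 0.55 to 1.57, and Ddit4, an mTOR inhibitor, by 0.46 to 1.61. Hif1a itself, the oxygen-regulated factor, lay between 10.23 in MEF and 10.87 at day 14, and Epas1, its relative, between 6.22 at day 3 and 8.04 on the array labelled endogenous PV.

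**Figure D5:**
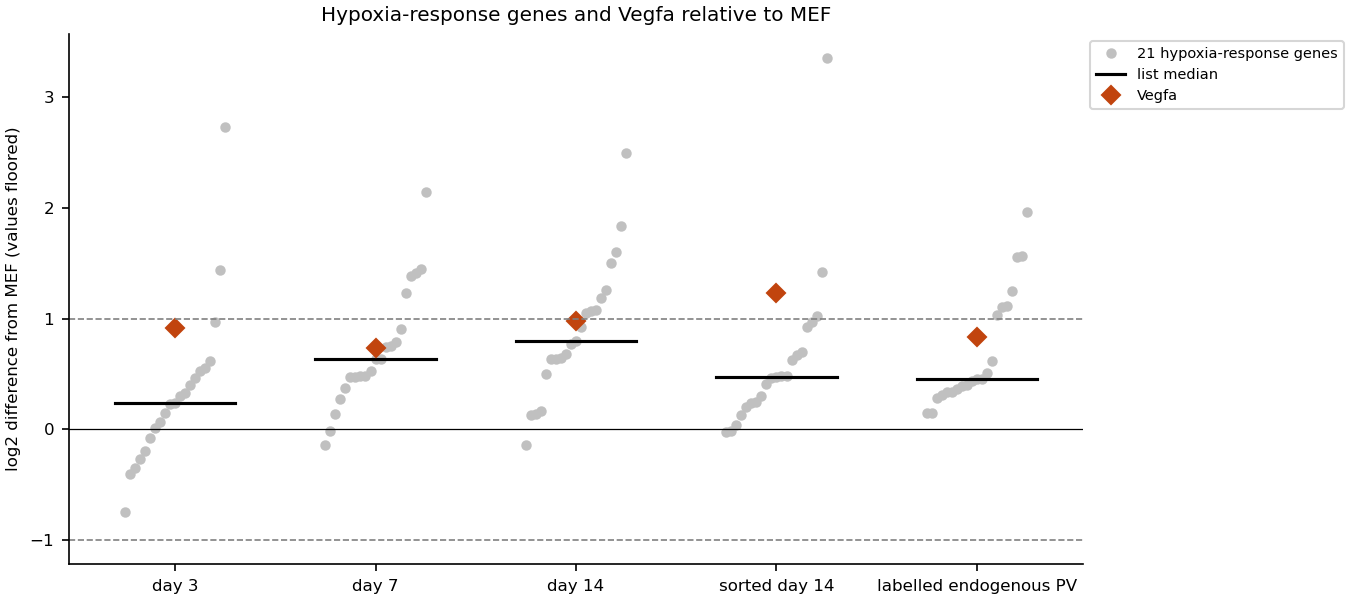
Log2 difference from MEF (vertical axis, values floored) of 21 hypoxia-response genes (grey points, sorted within each array), their median (black line) and Vegfa (diamond) on the 5 other arrays (horizontal axis). Dashed lines mark 2-fold. The list median is highest at day 14 (0.80), and the largest single difference is that of Egln3 in sorted cells (3.36).

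The lipid-sensing PPAR receptors are known to drive Angptl4, and their part in its differences was not tested. Among 14 genes of PPAR response and lipoprotein lipase, a list that holds the receptors as well as targets, list medians against MEF were between -0.01 and 0.15. Between 0 and 1 of them were at least 2-fold higher, and between 1 and 3 lower, on each array. Pdk4, a brake on pyruvate dehydrogenase, was lower than in MEF on all 5 arrays. Its differences were -2.48, -1.82 and -1.87 at days 3, 7 and 14, -2.02 in sorted cells and -1.69 for the labelled endogenous PV array. Cd36, a fatty acid carrier also found on macrophages, differed by -1.69, -1.01 and -0.78 at days 3, 7 and 14, by -1.71 in sorted cells and by 0.48 on the array labelled endogenous PV. Fabp4, a fatty acid binding protein, had 8.33 in MEF, 9.30 at day 3, 9.81 at day 7 and 10.30 at day 14. Sorted cells had 9.66 for it, against 10.30 in unsorted day 14 cells, and the array labelled endogenous PV had 8.32, against 8.33 in MEF. Lpl, the lipase that Angptl4 inhibits, lay between 9.26 at day 14 and 10.42 on the array labelled endogenous PV. Its anchor Gpihbp1, an endothelial protein, reached at most 5.48, in MEF.

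Of 15 other angiogenic growth factors in the table, 0 were at least 2-fold higher than in MEF on any array, and between 2 and 3 were lower on each. Over all genes above the floor 2.37% to 6.04% were higher, so a count of 0 in so short a list is near that share. For lower genes the share was 1.39% to 2.70%. Ptn (pleiotrophin) was lower on all 5 arrays, with differences of -1.37, -1.53 and -4.06 at days 3, 7 and 14, -2.51 in sorted cells and -2.01 for the labelled endogenous PV array. Its sorted value was 8.15, against 6.59 in unsorted day 14 cells. Pdgfc, a ligand of PDGF receptors, had differences between -1.43 and -0.98. Edn1, the vasoconstrictor endothelin, differed by -1.19 at day 3 and -1.09 in sorted cells, and Hgf, the ligand of Met, by -1.22 at day 14. Of 13 angiogenesis inhibitors, 3 were lower at day 3 than in MEF, 2 at day 7, 2 at day 14, 3 among sorted cells and 0 on the labelled endogenous PV array. In the same list 0 were higher at day 3 and at day 7, 2 at day 14, 1 among sorted cells and 2 on the labelled endogenous PV array. Thbs1 (thrombospondin) had differences between -1.65 and -0.83, and Timp3, an inhibitor of matrix proteases that also blocks Kdr, between -1.49 and -0.46. Isg15, a protein induced by interferon, differed by 1.57 at day 14 and by 1.18 for the labelled endogenous PV array. Cxcl10, a chemokine induced by interferon, was higher by 2.49 at day 14, 2.25 for sorted cells and 3.07 for the labelled endogenous PV array.

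Likeness of pattern was measured as the root mean square distance over 5 arrays between floored log2 values relative to MEF. The genes compared were 2444 named genes with a range of at least 1. This likeness is a description over arrays that share the MEF value. The closest to Angpt1 were A2m, a protease inhibitor of plasma, at 0.38, Npy1r, a receptor of neuropeptide Y, at 0.44 and Pappa2, a protease of IGF-binding proteins, at 0.46, and 0 genes lay within 0.2. A2m had 5.63 in MEF, 8.30 at day 3, 9.60 at day 7 and 8.67 at day 14, with 9.28 for sorted cells and 9.19 for the labelled endogenous PV array. For Vegfa, 41 of the 2444 genes lay within 0.2, led by Cuedc1 at 0.08, Kif21b, a kinesin, at 0.09 and Mreg at 0.11. The distance is in log2 units, so genes with a wide range can have fewer near matches. Kdr and Vegfc, with ranges near that of Vegfa (1.17 and 1.28, against 1.23), had 1 each. Flt1 was closest to Ccn5, a matricellular protein, at 0.28, to Fcer1g, a signalling chain of Fc receptors and a macrophage marker, at 0.31 and to Ak5, an adenylate kinase, at 0.33.

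Angptl4 was closest to Chl1, a neural adhesion molecule, at 0.43, Anxa8, an annexin, at 0.46 and Aspn, a matrix proteoglycan, at 0.51. Pgf had no close match, with Gdf6, a BMP-family ligand, at 0.49, Nes (nestin) at 0.56 and Ndst4, an enzyme of heparan sulfate synthesis, at 0.59. Kdr was nearest to Klf5, a zinc finger transcription factor, at 0.19, Itga4, an integrin chain, at 0.20 and Car5b, a mitochondrial carbonic anhydrase, at 0.21. For Vegfc the nearest were Naalad2, a peptidase, at 0.19, Pamr1 at 0.22 and Tlr2, a receptor of innate immunity, at 0.23.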

How the data were processed

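Each of the 6 samples was put on its own Affymetrix array from 6 µg of total RNA, per the labels' protocols. What the authors deposited is a single table of log2 intensities. The submitters' processing notes name Affymetrix Expression Console, while the summarisation method and build were not given in the sources used here. The log2 scale was read from the values. Array medians lay between 4.96 and 5.06, and 5333 control probe sets were left out of 41345. Of the rest, 23521 had 1 symbol in the platform annotation, 1814 several and 10677 none here. The members and gene lists were chosen with earlier results of these data known. Named were all members, the wider family, a selection of up to 4 genes per list with the largest difference from MEF, other list genes chosen after their values were seen, and the 3 genes closest in pattern to each member with a range of at least 1. The technical spread was the SD of the disagreement between the 2 brightest probe sets of a gene over the square root of 2, over 327 to 403 genes. With 1 array in each group nothing was tested, and the number of arrays limits the precision. Differences and the spread were tested on simulated data. Python 3.11.15 with pandas 2.3.3 and numpy 2.4.6 was used. Alternatives were quantile normalization, housekeeping centring, no floor, a floor at percentile 75, the mean of probe sets, and 1.5-fold and 4-fold thresholds.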

Additional observations from a re-analysis of the deposited data

How the results depend on the processing

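The directions of the 28 member differences past 2-fold held under all 5 alternative scalings, floors and probe set rules, except that Kdr became 0 at day 7 and on the array labelled endogenous PV with the higher floor, and 130 of 140 recomputed values stayed past 2-fold. Of the 10 that did not, 9 came with the floor at percentile 75 (6.58) and 1, Vegfa in sorted cells, with housekeeping centring. With that floor 1 member was higher than in MEF at day 3 and 2 were in sorted cells. Against MEF, 2 were lower at day 7 and 0 on the array labelled endogenous PV. At day 7 against day 3, 0 were higher and 0 lower, and 1 was lower in sorted against unsorted cells. In sorted cells against the array labelled endogenous PV 0 were higher, and Flt1 (-0.80) was no longer among the lower members. The higher floor hides low values by its construction. For the 4-fold and 1.5-fold thresholds, only counts that moved by more than a factor of 1.5, or from or to 0, are given. At 4-fold, 1 member was higher at day 3, 1 was lower at day 14, and 0 were lower at day 7 and on the array labelled endogenous PV, all against MEF. At 4-fold also, 0 passed in either direction at day 7 against day 3, 0 were lower in sorted against unsorted cells and 0 were higher in sorted cells against the array labelled endogenous PV. At 1.5-fold, 4 were lower at day 3 and in sorted cells against MEF, 2 were higher at day 7 and 2 were higher and 2 lower on the array labelled endogenous PV, 2 were higher at day 7 against day 3, and 2 were higher and 1 lower at day 14 against day 7. Over all genes, counts lay between 117 and 814, with 136 to 670 under housekeeping centring, 264 to 987 without a floor, 61 to 438 with the higher floor, 2 to 140 at 4-fold and 643 to 2202 at 1.5-fold. Housekeeping centring moved the share of higher among changed genes to between 28.5% and 41.9% in the 5 comparisons with MEF, where it had been between 46.7% and 69.1%, to 57.2% from 71.1% at day 7 against day 3, and quantile normalization gave 57.7% in sorted cells against MEF. Without a floor that share was 56.2% at day 7 against day 3 and 56.6% in sorted against unsorted cells. Of 350 list medians, 341 moved by less than the technical spread. No paired analysis was possible because each group has 1 array. Centring on the mean over arrays kept 3 of 3 closest genes for Vegfa, 2 of 3 for Vegfc and Flt1, and 0 of 3 for Pgf and Angptl4. For Angpt1 and Kdr it kept 1 of 3, and Npy1r and Pappa2 were not kept for Angpt1. Tek, and Pgf in MEF, lay under the floor, where the arrays set no measured fold.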
